A study of Mus musculus with 24 samples.

Results

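Of 24 mouse tumours, 5 were muscle-rich: they carried high levels of Acta1, Neb and Tnni2, 3 genes of the skeletal muscle contractile apparatus. They were control tumour 5, BMS754807 tumours 2 and 6, hydroxychloroquine tumour 5 and combination tumour 1, and they were compared with the other 19 with treatment group in the model. The question was which genes that are not themselves muscle genes go with muscle tissue in a tumour sample. The tumours were taken from a study of pancreatic ductal adenocarcinoma (PDAC) in which RNA was measured on Clariom S arrays. The 4 groups of 6 were a control given vector, BMS754807 (an inhibitor of the IGF1 and insulin receptors), hydroxychloroquine (which blocks the last step of autophagy by raising lysosomal pH) and the combination of both agents. The muscle-rich tumours made up 1 of 6 in the control, hydroxychloroquine and combination groups and 2 of 6 in the BMS754807 group. The labels gave no mouse strain, genotype, age, tumour site, dose or treatment time. Nor did the labels say that each tumour came from a separate animal, so each error and p describes the spread between these samples.

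Skeletal muscle contracts when thin filaments of actin slide past thick filaments of myosin inside repeating units called sarcomeres. Calcium released from the sarcoplasmic reticulum starts each contraction, and creatine kinase, glycogen breakdown and mitochondria supply its ATP. Fast fibres use a different set of myosin, troponin and calcium pump genes from slow fibres, and none of these sets is part of normal pancreatic duct or its carcinoma. Whole muscle also holds capillaries, connective tissue, resident macrophages, nerve endings and fat. RNA from a bulk piece of tissue mixes all of them, and more cells of a type cannot be told apart from more RNA per cell.

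Levels are given on the log2 scale of the deposited array values, where a difference of 1 is a factor of 2. For the 5 tumours they are listed in the order control tumour 5, BMS754807 tumour 2, BMS754807 tumour 6, hydroxychloroquine tumour 5 and combination tumour 1. Over all 24 arrays the medians lay between 6.79 and 7.03, and the correlations between arrays, taken across genes, ran from 0.9749 to 0.9937. On the first principal component, which held 18.6% of the variance, BMS754807 tumour 6 (72.2) and control tumour 5 (51.6) lay at the upper end. Next came hydroxychloroquine tumour 4 (34.7), which is not muscle-rich, above the remaining muscle-rich tumours (15.3 to 29.0). Which genes made up this component was not examined. The main counts and several list medians are given with and without control tumour 5 and BMS754807 tumour 6. Single genes are mostly given only with all tumours or with 1 left out.

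The 3 genes that chose the tumours were far above the rest. Acta1, the actin of skeletal muscle thin filaments, read 14.02, 14.12, 13.93, 16.36 and 15.00, against 4.31 to 9.94 (median 5.64) in the other 19. Neb, the giant ruler protein of the thin filament, read 9.18, 10.38, 8.51, 13.14 and 11.19, against 2.82 to 6.94 (median 3.57). Tnni2, the inhibitory troponin of fast fibres, read 11.09, 11.59, 11.46, 13.79 and 12.01, against 6.26 to 8.62 (median 7.63). In each of the 3 the lowest muscle-rich tumour lay above the highest of the others, which is how they were chosen, and hydroxychloroquine tumour 5 was highest. Since these values made the groups, they are a description with no test.

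**Figure D1:**
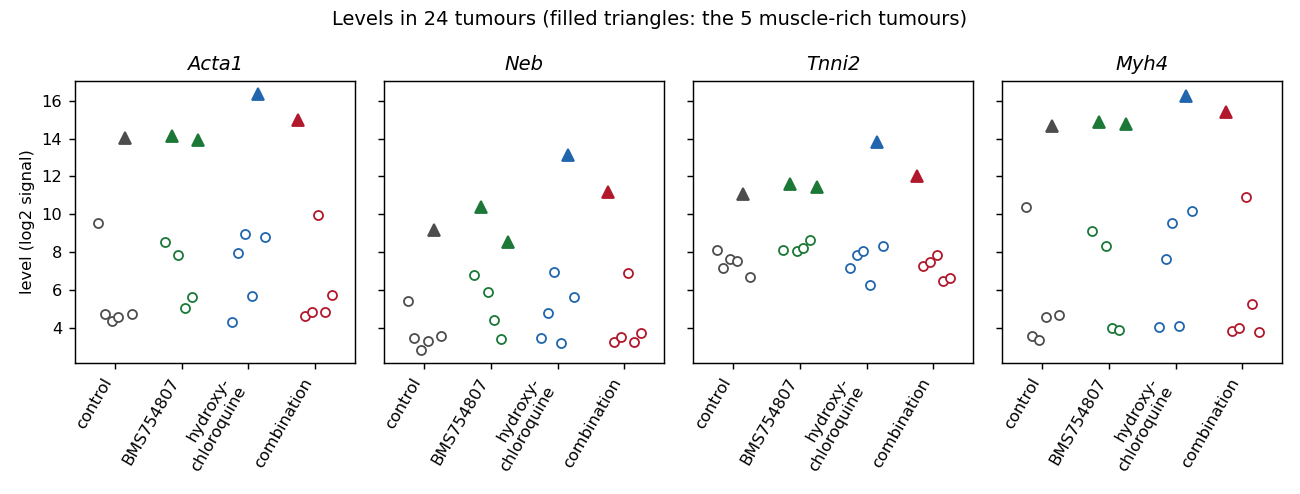
Levels (log2 signal) of Acta1, Neb, Tnni2 and Myh4 in each of the 24 tumours, by treatment group; filled triangles are the 5 muscle-rich tumours and open circles the other 19. Acta1 ran from 13.93 to 16.36 in the muscle-rich tumours and from 4.31 to 9.94 in the others, and each group holds at least 1 tumour above the gap.

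A score for fast fibre content was formed as the mean, over 15 genes of fast thin and thick filaments, of each tumour's deviation from the 24-tumour mean. It was 3.31, 3.77, 2.81, 5.92 and 4.66 in the muscle-rich tumours. Of the muscle-rich tumours the lowest was BMS754807 tumour 6 at 2.81, and the highest of the others was combination tumour 4 at 0.49. Outside the 5, the score did not form a single level: 12 tumours lay between -1.93 and -1.55, and 7 lay between -0.56 and 0.49. Combination tumour 4, hydroxychloroquine tumours 3 and 6, control tumour 1 and BMS754807 tumour 1 were the 5 highest of those 7. Myh4, the fastest of the adult myosin heavy chains, followed the same split, with 10.90 in combination tumour 4 and a median of 4.57 over the 19.

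Fast filament genes gave the widest gaps between the 2 sets of tumours. Myh4 read 14.67, 14.87, 14.77, 16.22 and 15.40, against 3.33 to 10.90 elsewhere, a difference of 9.12 ± 1.22 (SE) in the model. Tnnt3, the fast troponin that binds tropomyosin, differed by 8.10 ± 0.92 and Myl1, a fast myosin light chain, by 7.84 ± 0.79. The median over the list was 5.02, and all 15 measured members stood above 0, against 9160 of 19505 genes and a median of -0.02 over all genes. Over all genes 216 (1.11%) passed an adjusted p of 0.05 in limma, 165 higher (0.846%) and 51 lower (0.261%), and 14 of the 15 fast filament genes were among those higher. Because the choice of tumours used muscle genes, nothing is read from that count or from the like counts of other muscle lists.

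The calcium pump Atp2a1, which refills the sarcoplasmic reticulum of fast fibres, read 12.78, 12.96, 12.24, 14.99 and 13.30, against 2.49 to 8.19 (median 3.31). Its difference was 8.80 ± 0.92. Myh8, the perinatal myosin heavy chain, read 13.42, 14.16, 13.70, 15.66 and 14.91 against 3.66 to 10.11. Myh4 and Myh8 are near-identical neighbours in sequence, and whether their probe sets share signal was not tested. Myh3, the embryonic heavy chain, stood at 2.51 to 4.15 in the 5 tumours and at 2.16 to 2.90 in the rest, a difference of 0.64 ± 0.16 where that of Myh8 was 8.12 ± 0.97.

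The 250 bases before the RefSeq start are shown for the 4 genes with the largest differences among muscle list genes that have a RefSeq entry. They are from assembly GRCm38.p6, read 5′ to 3′ on the gene's own strand: Myh4 at chr11:67237562-67237811 (plus strand), Atp2a1 at chr7:126463074-126463323 (minus), Acta1 at chr8:123894776-123895025 (minus) and Myh8 at chr11:67276874-67277123 (plus). Capitals mark a CArG box, a MEF2 site or an E-box (CANNTG), each searched on both strands; these are motifs bound by SRF, MEF2 and the myogenic bHLH factors.
Myh4: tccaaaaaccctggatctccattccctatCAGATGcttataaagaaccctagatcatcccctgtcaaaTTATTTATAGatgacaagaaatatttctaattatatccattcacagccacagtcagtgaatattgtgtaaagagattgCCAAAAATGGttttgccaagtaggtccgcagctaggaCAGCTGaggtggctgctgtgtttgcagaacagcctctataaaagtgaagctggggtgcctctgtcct
Atp2a1: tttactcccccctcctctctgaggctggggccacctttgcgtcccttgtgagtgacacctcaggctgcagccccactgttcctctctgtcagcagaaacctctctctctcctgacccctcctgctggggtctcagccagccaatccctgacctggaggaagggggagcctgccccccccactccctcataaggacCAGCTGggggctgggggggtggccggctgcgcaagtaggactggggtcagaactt
Acta1: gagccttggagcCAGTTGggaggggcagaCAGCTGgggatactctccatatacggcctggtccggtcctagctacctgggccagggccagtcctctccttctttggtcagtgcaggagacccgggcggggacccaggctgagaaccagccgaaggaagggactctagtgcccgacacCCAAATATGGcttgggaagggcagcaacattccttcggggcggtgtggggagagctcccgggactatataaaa
Myh8: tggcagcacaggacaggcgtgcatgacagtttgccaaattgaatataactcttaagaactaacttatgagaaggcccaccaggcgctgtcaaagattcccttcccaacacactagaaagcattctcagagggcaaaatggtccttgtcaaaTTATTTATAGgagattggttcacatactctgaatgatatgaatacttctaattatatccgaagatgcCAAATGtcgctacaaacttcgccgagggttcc
Myh4 held all 3 motifs in this window, with the E-box form CAGCTG ending 62 bases before the start. Atp2a1 held 1 E-box, CAGCTG, and no other capital. Acta1 held a CArG box and 2 E-boxes, and Myh8 a MEF2 site and 1 E-box. A match is a string of letters and not a shown site.

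Over larger sets the same windows were counted as a description. CAGCTG was found in 45.1% of 71 promoters of 56 muscle list genes past the threshold, in 16.7% of 108 promoters of genes higher and on no muscle list, in 8.47% of 59 promoters of lower genes and in 13% of all 32851. MEF2 sites were found in 15.5%, 11.1%, 3.39% and 2.92% of the same sets, and CArG boxes in 7.04%, 3.7%, 0.0% and 1.47%. CANNTG, of which CAGCTG is 1 form, is so short that 66.2% of all promoters held it, against 83.1%, 77.8% and 67.8% of the 3 sets. TATAAA, which can overlap a MEF2 site, was in 19.7%, 23.1% and 10.2% of the sets and in 12.4% of all promoters. The sets were chosen by their values, so the shares carry no test.

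Slow and cardiac filament genes had a smaller median, 0.28 (0.17 without hydroxychloroquine tumour 5), with 11 of 17 above 0. Mybpc1, the slow myosin binding protein C, read 7.87, 7.88, 3.82, 11.58 and 10.23, against 2.47 to 6.20. BMS754807 tumour 6 thus lay inside the range of the other 19 for Mybpc1, although its Myh4 was at 14.77. The ventricular and slow light chain Myl2 read 5.82, 5.08, 5.10, 9.16 and 6.69 against 4.18 to 5.65, and Myh7, the slow heavy chain, read 2.72, 3.26, 3.16, 6.58 and 4.80 against 2.26 to 3.89. For both, hydroxychloroquine tumour 5 and combination tumour 1 lay above all 19 others, while BMS754807 tumours 2 and 6 did not. The score over this list was 0.14, 0.23, -0.06, 1.20 and 0.73 against -0.31 to 0.12, so the 5 tumours stood in the same order as by the fast filament score and BMS754807 tumour 6 alone lay within the others.

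Giant and Z disc proteins, which anchor and space the filaments, had a median of 2.56, with 28 of 30 members above 0. Ttn, the molecular spring of the sarcomere, read 10.80, 10.57, 8.76, 12.97 and 11.52 against 3.02 to 7.62. Des, the muscle intermediate filament, read 9.12, 9.82, 9.88, 14.30 and 12 against 4.91 to 7.96. Myot, a Z disc protein, read 6.01 in BMS754807 tumour 6, below the highest of the other 19 (6.14), and 8.40 to 11.77 in the other 4.

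Excitation and calcium release genes had a median of 0.70, with 19 of 22 above 0, and the median was 0.33 without hydroxychloroquine tumour 5. Ryr1, the calcium release channel, read 5.02, 6.59, 4.60, 9.49 and 6.84 against 1.76 to 3.71. Its partner Trdn differed by 4.39 ± 0.42 and the calcium store protein Casq1 by 3.93 ± 0.30. Both groups were separate for each of these 3 genes.

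Energy metabolism genes of muscle had a median of 0.98, with 21 of 26 above 0. Pygm, which starts glycogen breakdown, read 11.41, 11.46, 10.43, 12.98 and 11.39 against 5.44 to 7.88. Cox6a2, the muscle subunit of cytochrome oxidase, read 7.33, 7.63, 7.50, 10.49 and 8.23 against 4.15 to 6.04. Myoglobin, encoded by Mb, read 7.10, 7.04, 5.00, 10.72 and 9.37 against 3.84 to 6.46, so BMS754807 tumour 6 lay within the others. Low Mb together with low Mybpc1 set that tumour apart from the other 4.

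Genes of the muscle membrane, of the synapse and of muscle regulation gave smaller differences than fast filament genes. The membrane and dystrophin complex list had a median of 0.78, with Cmya5, which binds desmin, at 1.87 ± 0.32 and the sarcoglycan Sgca at 1.04 ± 0.24. Of 11 genes of the neuromuscular junction 9 were above 0, with a median of 0.20. Chrna1, a subunit of the acetylcholine receptor, was at 3.66 to 6.66 against 2.08 to 4.48. Musk, the kinase that organises the synapse, read 6.33 in hydroxychloroquine tumour 5 and 2.52 to 3.09 in the other 4, which lay within the 2.14 to 3.16 of the rest. The myogenic list had a median of 0.26, and Myf6, the regulator most expressed in adult fibres, read 3.82, 4.53, 3.66, 8.72 and 5.19 against 2.35 to 3.86.

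Atrophy and denervation genes did not stand higher as a list: 4 of 11 were above 0, and the median was -0.04. Fbxo32, a ubiquitin ligase of wasting muscle, read 8.27 to 8.61 in 4 of the muscle-rich tumours, inside the 7.30 to 9.30 of the others, and 10.50 in hydroxychloroquine tumour 5. Foxo1 read 10.82, 11.29, 10.64, 10.81 and 11.15 against 11.02 to 11.56. The 2 sets overlapped for both genes.

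**Figure D2:**
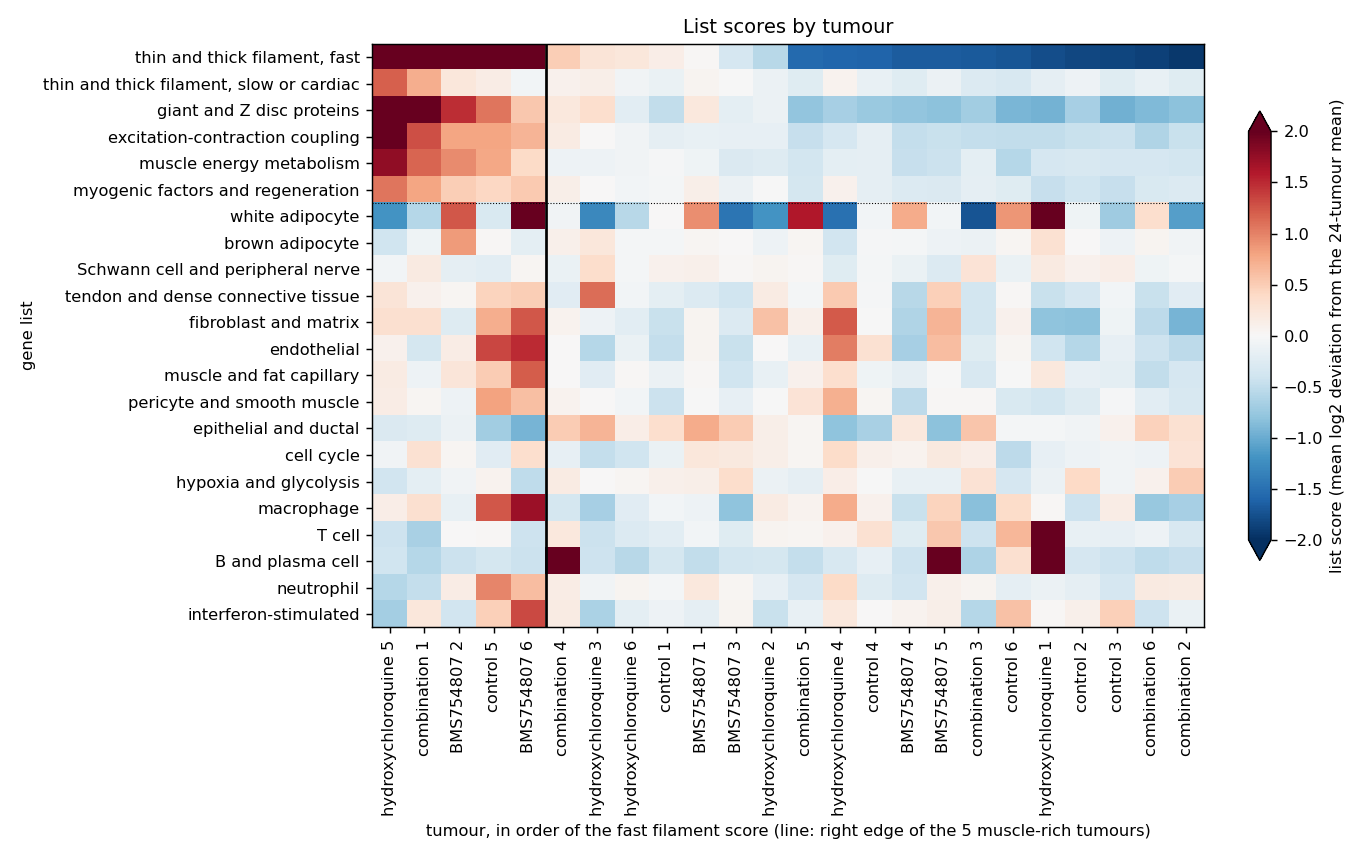
List scores (mean log2 deviation from the 24-tumour mean) of 22 gene lists in each tumour, ordered by the fast filament score; the vertical line marks the right edge of the 5 muscle-rich tumours and the dotted line separates muscle lists from the others. The muscle rows are red in all 5 for fast filaments, while macrophage and endothelial scores are highest in BMS754807 tumour 6 and control tumour 5, and the fibroblast score is highest in BMS754807 tumour 6 and hydroxychloroquine tumour 4.

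Among the 19341 genes on no muscle list, 91 were higher in the muscle-rich tumours (0.471% of them) and 51 lower (0.264%), by limma with Benjamini-Hochberg adjustment. The higher ones differed by 0.35 to 3.61 and the lower ones by 0.36 to 1.71 downward. With any 1 of the 24 tumours left out in turn, 37 of the 91 and 2 of the 51 stayed past the threshold throughout. Without hydroxychloroquine tumour 5 the counts were 56 and 24, without control tumour 5 the lower count was 18, and without BMS754807 tumour 6 it was 12. Leaving out BMS754807 tumours 3 or 4 gave 23 or 21 lower genes, and leaving out BMS754807 tumour 5 gave 82. Without hydroxychloroquine tumour 4, which is not muscle-rich, the counts rose to 152 and 123, and without BMS754807 tumour 2 to 145 and 115. Without control tumour 5 and BMS754807 tumour 6 together, 4 genes were lower.

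**Figure D3:**
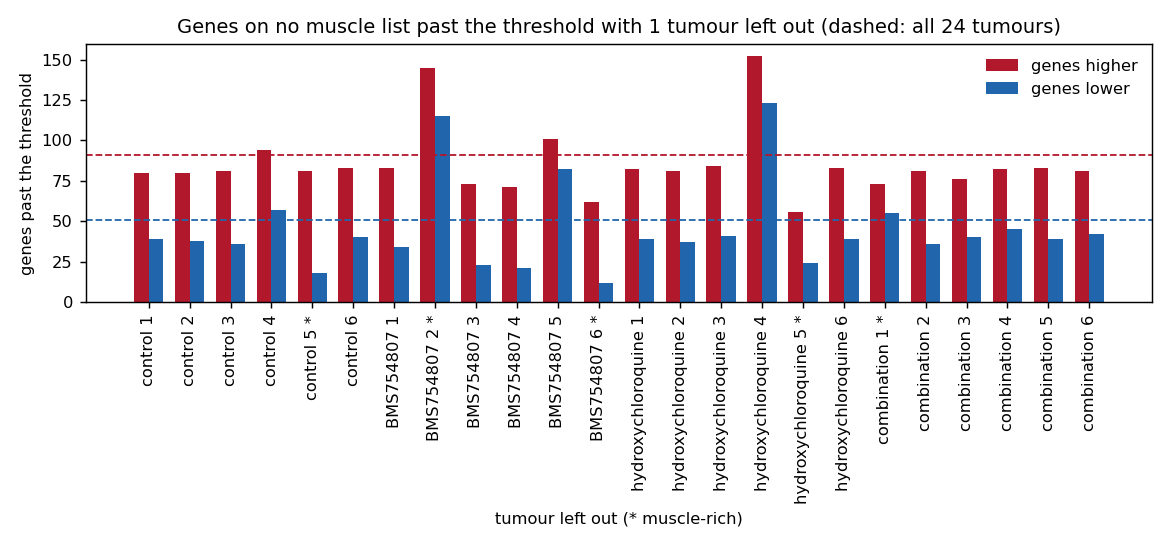
Genes on no muscle list that were higher (red) or lower (blue) in muscle-rich tumours past an adjusted p of 0.05, with 1 tumour left out at a time; dashed lines are the counts with all 24 tumours, 91 and 51, and an asterisk marks a muscle-rich tumour. Higher counts ran from 56 to 152 and lower counts from 12 to 123.

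Most of the largest differences upward belonged to genes known from muscle that were on none of the muscle lists. Since muscle genes chose the tumours, the p values of such genes, here and below, are not an independent test. Klhl31, a protein of the ubiquitin ligase adaptor family needed for muscle structure, read 6.57, 6.38, 4.09, 7.67 and 6.79 against 2.37 to 3.59, a difference of 3.61 ± 0.30 (adjusted p = 5.71e-08). Mustn1, a small nuclear protein of the musculoskeletal system, read 7.33, 7.55, 8.90, 12.09 and 9.49 against 4.52 to 6.83 (3.45 ± 0.49, adjusted p = 0.000134). Fhl1, a LIM protein of the sarcomere, read 11.24, 11.24, 11.31, 15.20 and 13.94 against 7.75 to 12.20 (2.93 ± 0.51, adjusted p = 0.00196). The groups were separate for Klhl31 and Mustn1 and overlapped for Fhl1.

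Others of the 12 largest differences among genes on no list included the small heat shock protein Hspb7, at 3.14 ± 0.64 (adjusted p = 0.0104). Its levels were 4.57, 4.36, 4.14, 10.95 and 8.85 against 2.61 to 4.83, so the difference came from hydroxychloroquine tumour 5 and combination tumour 1. Without either of these the Hspb7 adjusted p reached 0.091. Hjv, the iron-regulating hemojuvelin that muscle and liver make, rose by 2.47 ± 0.30 (adjusted p = 2.22e-05), and Eef1a2, the translation elongation factor of muscle and neurons, by 2.09 ± 0.23 (adjusted p = 3.4e-06). Asb11 (2.41 ± 0.26), Tmem182 (2.39 ± 0.39), Txlnb (2.32 ± 0.30), Lrrc2 (2.70 ± 0.49) and the kinase family member Alpk3 (2.12 ± 0.33) completed them with Prkaa2, described below.

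More sarcomere and fibre genes stood among the 91, and those named in this paragraph were chosen after their values were seen. Tmod4, which caps thin filaments in muscle, read 7.42, 7.75, 6.69, 9.88 and 8.11 against 5.38 to 7.02 (1.96 ± 0.32, adjusted p = 0.000957). Smyd1, a muscle methyltransferase that helps fold myosin, rose by 0.89 ± 0.18 (adjusted p = 0.0086), and Trim54, a ubiquitin ligase of the sarcomere, by 0.84 ± 0.17 (adjusted p = 0.0103). Rpl3l, the muscle form of a ribosomal protein, rose by 1.22 ± 0.23 (adjusted p = 0.00529). Smyd1, Trim54 and Rpl3l each missed the threshold without hydroxychloroquine tumour 5, at adjusted p values of 0.091, 0.087 and 0.063. The small heat shock proteins Hspb6 and Hspb8 rose by 1.14 ± 0.21 and 1.67 ± 0.27, and the F-actin protein Nexn by 0.91 ± 0.15. The count of 91 therefore holds many genes of muscle fibres and is not a count of genes from outside them.

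All 5 muscle-rich tumours lay above all 19 others for 51 genes (0.261% of 19505), of which 35 were on muscle lists and 16 were not. Among the 16 were Klhl31, Mustn1, Hjv, Asb11, Txlnb, Prkaa2, Sptb, Pdk4, Synpo2 and Ndrg2. All 5 lay below all 19 for 3 genes (0.0154%): Kdm3a, Ipp and Mia2.

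Pdk4, the kinase that shuts off pyruvate dehydrogenase and so favours fat over glucose in fibres, read 5.33, 8.20, 6.79, 9.16 and 6.20 against 2.68 to 4.91 (median 3.84). It rose by 3.23 ± 0.38 (adjusted p = 1.15e-05) and the groups were separate. Prkaa2, the catalytic subunit of AMP-activated kinase that prevails in muscle, read 5.26, 5.96, 5.58, 9.15 and 5.99 against 3.37 to 4.73 (2.57 ± 0.34, adjusted p = 5.41e-05). Ucp3, the uncoupling protein of muscle mitochondria, read 4.18, 5.17, 5.39, 5.07 and 3.63 against 2.67 to 4.84 (1.23 ± 0.26, adjusted p = 0.0145). Without BMS754807 tumour 6 or hydroxychloroquine tumour 5, Ucp3 missed the threshold, at an adjusted p of up to 0.078.

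Other genes on the lists of the citrate cycle, fatty acid oxidation and the respiratory chain did not pass the threshold. Pdk4 and Ucp3 were the only 2 of 25 genes of the citrate cycle and fatty acid oxidation to pass, and the median of that list was 0.01. Pdha1, the subunit that Pdk4 phosphorylates, differed by -0.40 ± 0.13 (adjusted p = 0.144). The list of respiratory chain and ATP synthase genes shared by all tissues held 37 measured genes and not every subunit. Its median was 0.14 (0.078 without hydroxychloroquine tumour 5), with 27 above 0. In limma 0 of the 37 passed the threshold and 11 had an unadjusted p under 0.05. Cox5b read 13.34, 13.23, 13.57, 13.42 and 13.15 against 12.70 to 13.29 (0.32 ± 0.10, adjusted p = 0.152), and Ndufb8 differed by 0.52 ± 0.18 (adjusted p = 0.188). Off these lists some mitochondrial genes passed, and those given here were named after their values were seen. Coq8a rose by 1.53, Ndufb7 by 0.49 and Tomm5 by 0.47, while Fahd1 differed by -0.87 and Cmc1 by -0.43. In that order they stayed past the threshold in 23, 8, 14, 22 and 7 of the 24 single removals. For listed genes, counts at an unadjusted p under 0.05, here and below, come without the share over all genes and are descriptions only.

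Meox2, a homeobox factor of muscle and fat capillaries and of developing limb muscle, read 6.88, 5.84, 6.22, 7.66 and 5.97 against 3.90 to 6.21 (median 5.37). It rose by 1.38 ± 0.22 (adjusted p = 0.000958), stayed past the threshold in all 24 single removals, and the 2 sets overlapped. Rgcc, a cell cycle regulator of endothelium, read 7.84, 6.99, 7.35, 7.16 and 5.86 against 5.21 to 7.20 (1.07 ± 0.25, adjusted p = 0.0337). It missed the threshold without any 1 of 6 tumours (control tumour 5, BMS754807 tumours 1, 3, 4 and 6, and hydroxychloroquine tumour 5), at an adjusted p of up to 0.227. These were the 2 of 11 capillary genes past the threshold. Gpihbp1, which carries lipoprotein lipase across capillaries, read 10.27, 7.55, 9.46, 8.40 and 8.01 against 7.26 to 9.75 (0.75 ± 0.33, adjusted p = 0.293).

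Synpo2, an actin-bundling protein of the Z disc and of smooth muscle, read 6.89, 6.46, 7.13, 8.19 and 6.82 against 4.67 to 6.20 (median 5.34). It rose by 1.77 ± 0.24 (adjusted p = 7.31e-05) and the groups were separate. It was the 1 of 16 genes on the pericyte and smooth muscle list to pass, and that list had a median of 0.30. Without control tumour 5 the list's median was 0.09. Ndrg2, a stress-responsive protein abundant in muscle and brain and named after its values were seen, read 12.29, 12.54, 12.32, 13.22 and 12.23 against 10.88 to 12.19 (0.86 ± 0.20, adjusted p = 0.0304). It missed the threshold without control tumour 5, hydroxychloroquine tumour 5 or combination tumour 1, at up to 0.159.

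**Figure D4:**
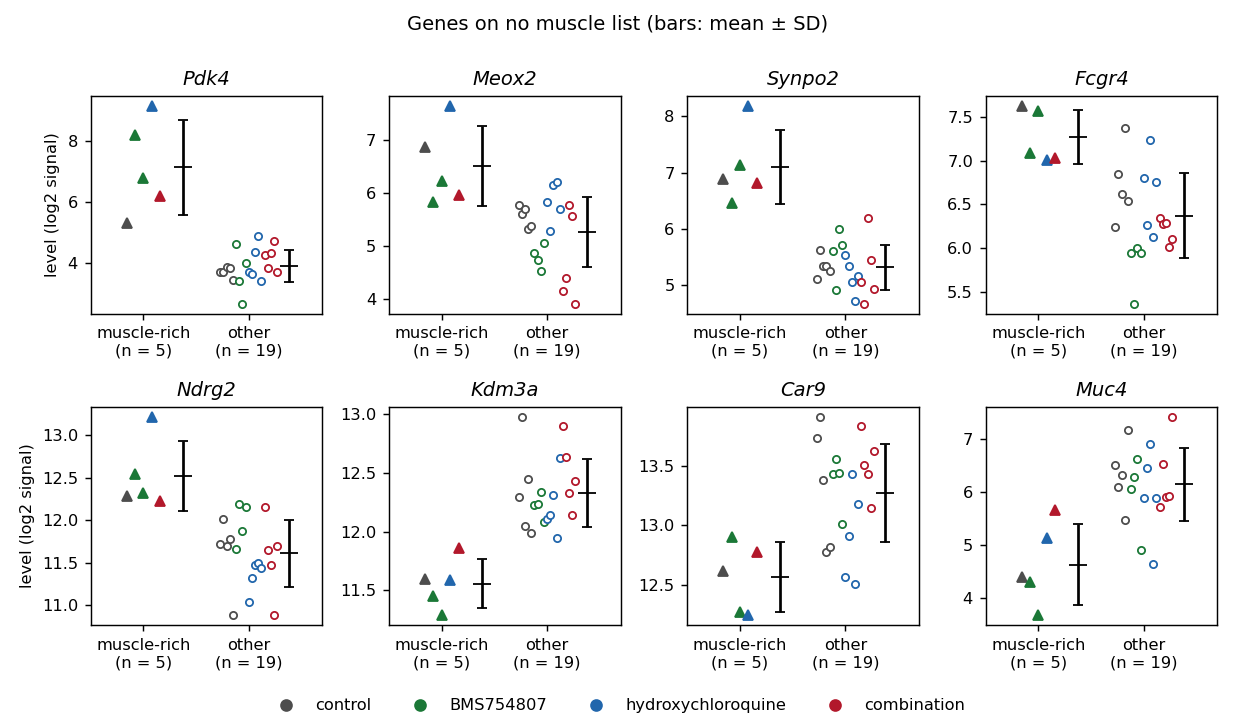
Levels (log2 signal) of 8 genes on no muscle list, with filled triangles for the 5 muscle-rich tumours, open circles for the other 19, colours for treatment group and bars for mean ± SD. The sets are separate for Pdk4, Synpo2, Ndrg2 and Kdm3a and overlap for Meox2, Fcgr4, Car9 and Muc4.

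Macrophage genes had differences above 0 as a list, unevenly across the 5 tumours. All 16 measured markers were above 0, with a median of 0.83, and in limma 0 of 16 passed the threshold and 13 had an unadjusted p under 0.05. The macrophage score was 1.24, -0.15, 1.71, 0.13 and 0.31, against -0.83 to 0.75 in the other 19, so control tumour 5 and BMS754807 tumour 6 lay above all others and the other 3 did not. The median fell to 0.34 with those 2 tumours left out. C1qc, of the complement starter C1q, read 11.23, 9.51, 11.40, 10.59 and 10.47 against 8.96 to 11.14 (0.96 ± 0.29, adjusted p = 0.117), and the scavenger receptor Cd163 differed by 1.32 ± 0.40 (adjusted p = 0.13).

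Myeloid genes outside that list passed the threshold, and those given here were named after their values were seen. Fcgr4, an activating IgG receptor of macrophages and monocytes, read 7.63, 7.09, 7.57, 7.01 and 7.03 against 5.36 to 7.37 (median 6.27). It rose by 0.99 ± 0.19 (adjusted p = 0.00467), and it passed in all 24 single removals. Control tumour 5 and BMS754807 tumour 6 lay above all of the others for Fcgr4, and the remaining muscle-rich tumours lay within them. Single removals do not show what leaving out both would do. Clec4b1, a myeloid lectin, rose by 0.96 ± 0.22 (adjusted p = 0.0264), and it missed the threshold without BMS754807 tumour 4, BMS754807 tumour 6 or hydroxychloroquine tumour 5 (up to 0.131). Fcgr1 (1.25 ± 0.31, adjusted p = 0.0469) and the scavenger receptor Stab1 (1.34 ± 0.32, adjusted p = 0.042) missed it in 19 and 16 of the 24 removals, at up to 0.22 and 0.229. With the macrophage score as a covariate, a setting chosen after seeing the data, Fcgr4 differed by 0.96 (adjusted p = 0.065) and Fcgr1 by 0.40 (adjusted p = 0.829).

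Fibroblast and endothelial lists also had most genes above 0. All 22 fibroblast and matrix genes were above 0 with a median of 0.65, and 16 of 18 endothelial genes with a median of 0.84, and in limma 0 genes of either list passed the threshold, with 8 and 11 at an unadjusted p under 0.05. The fibroblast score was 0.73, -0.26, 1.24, 0.32 and 0.32 against -0.93 to 1.23, and the endothelial score 1.33, 0.14, 1.49, 0.09 and -0.35 against -0.67 to 1.02. Without control tumour 5 and BMS754807 tumour 6 the medians were 0.22 and 0.11. Without control tumour 5 alone they were 0.41 and 0.42, and without BMS754807 tumour 6 alone 0.47 and 0.58.

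Single genes of these lists showed the same pattern. Robo4, a guidance receptor of endothelium, read 8.51, 6.88, 8.11, 6.49 and 6.05 against 5.42 to 7.55 (1.12 ± 0.33, adjusted p = 0.12), and Fap, a protease of activated fibroblasts, differed by 0.78 ± 0.27 (adjusted p = 0.191). Off the lists and named after their values were seen, thrombomodulin, encoded by Thbd, rose by 1.15 ± 0.24 (adjusted p = 0.0159) and the matrix gene Ccdc80 by 1.15 ± 0.26 (adjusted p = 0.0245). Thbd missed the threshold without control tumour 5 or BMS754807 tumour 6 (up to 0.094), and Ccdc80 without either of these or combination tumour 1 (up to 0.153). The secreted follistatin family protein Fstl1 (1.35 ± 0.33, adjusted p = 0.048) missed it in 20 of 24 removals, at up to 0.245.

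Fat differed between the 5 samples more than between the 2 sets. The white adipocyte score was -0.30, 1.24, 3.84, -1.20 and -0.56, against -1.73 to 2.27 in the other 19, so BMS754807 tumour 6 was highest and hydroxychloroquine tumour 5 among the lower ones. Cd36, the fatty acid carrier, read 9.86, 11.06, 13.54, 7.57 and 9.27 against 6.36 to 10.44 (1.54 ± 0.66, adjusted p = 0.285). The list had 14 of 16 genes above 0 and a median of 0.51, which was -0.22 without BMS754807 tumour 6. In limma 0 of the 16 passed and 1 had an unadjusted p under 0.05. Ucp1, the uncoupling protein of brown fat, read 8.13 in BMS754807 tumour 2, 2.14 to 2.84 in the other 4 and 2.04 to 4.38 in the rest.

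Among other tissues that accompany muscle, the tendon score was above 0 in all 5 muscle-rich tumours, at 0.44, 0.04, 0.49, 0.26 and 0.09. In the other tumours it ran from -0.55 to 1.12 with a median of -0.19, so the 2 sets overlapped. Schwann cell, skin, mesothelial and hepatocyte markers gave no common difference. The tendon list had 14 of 17 genes above 0 with a median of 0.13 (0.26 without hydroxychloroquine tumour 5), and Prg4, the joint and tendon lubricant, differed by 1.64 ± 0.59 (adjusted p = 0.205). Schwann cell and nerve genes had a median of 0.05, with Pmp22, a myelin protein also made by fibroblasts, at 0.79 ± 0.26 (adjusted p = 0.166) and S100b at -0.73 ± 0.26 (adjusted p = 0.203). Skin genes had a median of -0.0017, mesothelial genes 0.10 and hepatocyte genes -0.06. The mesothelial median was -0.16 without hydroxychloroquine tumour 5, 0.28 without control tumour 5 and 0.32 without control tumour 5 and BMS754807 tumour 6. The hepatocyte median was -0.25 without control tumour 5, -0.27 without those 2 tumours, 0.040 without BMS754807 tumour 2 and 0.024 without hydroxychloroquine tumour 5. In limma 0 genes of these 5 lists passed the threshold, with 3, 4, 1, 2 and 0 at an unadjusted p under 0.05 in the order given.

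**Figure D5:**
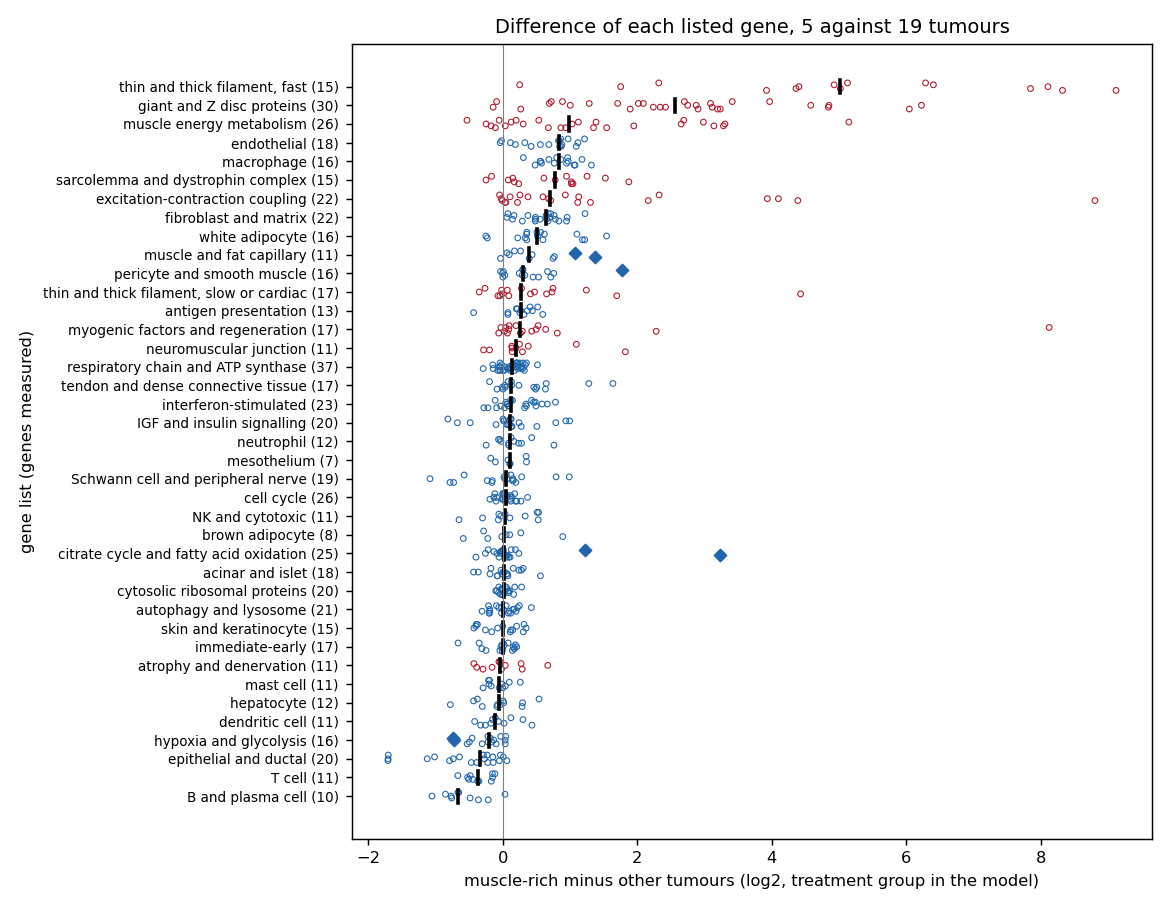
Difference between muscle-rich and other tumours (log2, treatment group in the model) for each measured gene of 39 lists, with the number measured in brackets; red circles are genes of muscle lists, blue circles other genes, filled diamonds genes on no muscle list with an adjusted p under 0.05, and black bars list medians. Medians ran from 5.02 for fast filaments to -0.66 for B and plasma cells.

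Of 20 epithelial and ductal markers 18 were below 0, with a median of -0.34, and in limma 0 of the 20 passed the threshold, with 9 at an unadjusted p under 0.05. The median was -0.18 without control tumour 5 and BMS754807 tumour 6. The epithelial score was -0.70, -0.12, -0.93, -0.28 and -0.26 against -0.82 to 0.74, so BMS754807 tumour 6 lay under the range of the others and the other 4 within it. Epcam, the epithelial adhesion molecule, read 10.95, 13.43, 10.68, 13.12 and 12.57 against 11.48 to 14.92 (-1.71 ± 0.48, adjusted p = 0.098). The keratins of ductal cells had differences near 0: Krt8 differed by -0.05 ± 0.08, Krt18 by 0.01 ± 0.08 and Krt19 by -0.04 ± 0.09, with adjusted p values of 0.818, 0.98 and 0.9. The Krt18 difference was -0.048 with array medians centred, and the Krt19 difference was 0.011 without control tumour 5.

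The largest differences downward included genes of gut, liver and duct epithelium, and most of their calls were lost without single tumours. Aadac, an esterase of the liver and gut, read 6.03, 5.09, 5.04, 7.68 and 5.27 against 6.49 to 8.94 (-1.71 ± 0.34, adjusted p = 0.00789), and reached 0.0519 without combination tumour 1. Cyp2c65, a cytochrome P450 of the intestine, read 4.58, 3.95, 4.88, 4.06 and 4.96 against 4.93 to 7.54 (-1.46 ± 0.31, adjusted p = 0.016), and reached 0.0812 without control tumour 5 or hydroxychloroquine tumour 5. Muc4, a membrane mucin of pancreatic carcinoma, read 4.40, 4.30, 3.68, 5.14 and 5.66 against 4.65 to 7.43 (-1.43 ± 0.34, adjusted p = 0.0372).

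Calls for the other epithelial genes depended on which tumours were kept. Muc4 missed the threshold in 11 of the 24 removals (up to 0.175). Kif12, a kinesin of kidney and bile duct cells, differed by -1.38 ± 0.32 (adjusted p = 0.0326) and missed it without control tumour 5 or BMS754807 tumours 3, 4 or 6 (up to 0.197). Pdzk1ip1, a small membrane protein of carcinomas, differed by -1.38 ± 0.32 (adjusted p = 0.0343) and missed it without any of these or combination tumour 1 (up to 0.175). Outside epithelium, Gfpt1, the entry enzyme of hexosamine synthesis, differed by -0.59 ± 0.14 (adjusted p = 0.0326) and the matrix protease Adamts1 by -0.59 ± 0.13 (adjusted p = 0.017), both named after their values were seen. Gfpt1 missed the threshold without any 1 of the 6 tumours named for Rgcc (up to 0.16), and Adamts1 without BMS754807 tumour 6, hydroxychloroquine tumour 5 or combination tumour 1 (up to 0.093). With the epithelial score as a covariate 2 genes were lower and 54 higher, and with the macrophage score 1 and 57.

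Of the 12 largest downward differences the other 7 were smaller. Hook1, a microtubule linker, differed by -0.98 ± 0.23, Urah, an enzyme of urate breakdown, by -0.93 ± 0.20, and the receptor partner Ramp3 by -0.87 ± 0.21. Il17re, Cpn1, Ambp and Chrm3 differed by -1.16 ± 0.29, -1.10 ± 0.27, -0.95 ± 0.23 and -0.88 ± 0.22. Adjusted p values of these 7 lay between 0.0186 for Urah and 0.0486 for Cpn1. Urah missed the threshold without BMS754807 tumour 6 or hydroxychloroquine tumour 5 (up to 0.115), and each of the other 6 missed it in 7 or more of the 24 removals.

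Of 16 hypoxia and glycolysis genes 13 were below 0, with a median of -0.20 (-0.13 without BMS754807 tumour 6), and 2 passed the threshold. Their score was 0.07, -0.07, -0.50, -0.38 and -0.19 against -0.33 to 0.50 (median 0.035), so control tumour 5 lay above the median of the others and BMS754807 tumour 6 and hydroxychloroquine tumour 5 below all of them. In the slope on the fast filament score within the 19 tumours, described below, 14 of the 16 genes were above 0. Car9, a carbonic anhydrase induced by HIF, read 12.62, 12.90, 12.28, 12.25 and 12.78 against 12.51 to 13.91 (median 13.43), a fall of -0.72 ± 0.17 (adjusted p = 0.0382). Egln3, the oxygen sensor and HIF target, read 14.16, 14.64, 13.54, 13.77 and 14.50 against 14.34 to 15.45 (-0.74 ± 0.18, adjusted p = 0.0433). Both sets overlapped for each gene, and Car9 and Egln3 missed the threshold in 13 and 14 of the 24 removals (up to 0.164 and 0.2). The glucose carrier Slc2a1 differed by -0.46 ± 0.17 (adjusted p = 0.224) and Ndrg1 by -0.50 ± 0.16 (adjusted p = 0.169).

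Kdm3a, Ipp and Mia2 were the 3 genes with all 5 muscle-rich tumours below all others, and they were named after their values were seen. Kdm3a, a histone H3 lysine demethylase that is also a hypoxia target, read 11.60, 11.45, 11.29, 11.59 and 11.86 against 11.95 to 12.98 (-0.74 ± 0.14, adjusted p = 0.00389). Ipp, an actin-binding kelch protein, read 7.20, 7.67, 7.16, 7.61 and 7.44 against 7.81 to 8.57 (-0.74 ± 0.12, adjusted p = 0.000745). These 2 were the lower genes that stayed past the threshold in all 24 removals. With control tumour 5 and BMS754807 tumour 6 left out together, Kdm3a differed by -0.68 (adjusted p = 0.097) and Ipp by -0.56 (adjusted p = 0.064). Mia2, a cargo receptor of the secretory pathway, read 13.82 to 14.37 against 14.39 to 14.86 (-0.38 ± 0.09, adjusted p = 0.0425) and missed the threshold in 17 removals.

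Most lymphocyte genes had differences below 0, and in limma 0 passed, with 1 T cell gene and 0 B and plasma cell genes at an unadjusted p under 0.05. All 11 T cell genes were below 0 with a median of -0.37 (-0.24 without hydroxychloroquine tumour 5), and 9 of 10 B and plasma cell genes with a median of -0.66. The B cell score was -0.57 to -0.35 in the 5 tumours and -0.62 to 3.70 in the others, with a median of -0.37, so the difference lay in a few high tumours among the 19. The T cell co-stimulator Icos read 4.62, 4.16, 4.31, 4.13 and 3.85 against 3.87 to 7.14 (-0.67 ± 0.36, adjusted p = 0.404).

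Genes of the pathways the drugs act on were examined next. The receptor gene Igf1r differed by 0.06 ± 0.15, Insr by 0.13 ± 0.11 and Irs1 by 0.08 ± 0.11, with adjusted p values of 0.892, 0.624 and 0.799. Of 20 IGF and insulin signalling genes 16 were above 0, with a median of 0.11 (0.052 without control tumour 5 and BMS754807 tumour 6, and 0.053 with array medians centred). In limma 0 were called, and 6 had an unadjusted p under 0.05. The binding protein Igfbp6 read 6.90, 6.13, 8.92, 7.25 and 7.73 against 5.05 to 7.46 (0.99 ± 0.37, adjusted p = 0.22), and its difference was 0.60 without BMS754807 tumour 6. Grb10, an adaptor that binds both receptors, read 9.26, 8.39, 10.27, 9.14 and 8.40 against 6.74 to 10.12 (0.94 ± 0.38, adjusted p = 0.262), and its difference was 0.42 without control tumour 5 and BMS754807 tumour 6. Igf2, the fetal growth factor, read 5.65, 5.52, 5.61, 6.15 and 6.60 against 4.35 to 6.32 (0.79 ± 0.24, adjusted p = 0.123), and Igf1 differed by 0.51 ± 0.41 (adjusted p = 0.6). The binding protein Igfbp5 differed by -0.68 ± 0.22 (adjusted p = 0.168). The listed autophagy and lysosome genes had a median of 0.01, with Map1lc3b at 0.08 ± 0.11 and its cargo adaptor Sqstm1 at 0.10 ± 0.15 (adjusted p = 0.764 and 0.82). Of such genes off the list, Rragd rose by 1.36 and Fyco1 by 0.64, both past the threshold and named after their values were seen. They stayed past it in 22 and 8 of the 24 single removals. Cell cycle genes had a median of 0.04, with 0 of 26 at an unadjusted p under 0.05, against 2 of 21 autophagy and lysosome genes, and 0 of either list passed in limma. The proliferation marker Mki67 differed by -0.13 ± 0.14 (adjusted p = 0.702).

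The same question was put to the 19 tumours outside the set, by the slope of each gene on the fast filament score with treatment group in the model. Here 19 genes passed the threshold (0.0974% of 19505), of which 15 were on muscle lists and 4 were not. Of the 15, 8 were fast filament genes that form the score, so their calls were built in and nothing is read from them. Of the genes on no muscle list, 1361 had an unadjusted p under 0.05. Klhl31 rose by 0.34 per unit of score (adjusted p = 0.028), the nucleoside carrier Slc28a3 by 0.58 (adjusted p = 0.033) and Eps8l3, of a family of actin regulators, by 0.68 (adjusted p = 0.046). Coq6, an enzyme of coenzyme Q synthesis, fell by 0.54 (adjusted p = 0.035). The count of 4 was 0 without hydroxychloroquine tumour 3 or combination tumour 2. It was 1 or 2 without any of control tumour 4, BMS754807 tumours 1, 3, 4 or 5, hydroxychloroquine tumours 2 or 6, or combination tumours 5 or 6. These 4 genes were named after their values were seen, and of them Klhl31 alone also passed in the comparison of 5 with 19.

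Slopes in the 19 varied among the genes called in the comparison of 5 with 19. Of the 91 higher genes 61 had a slope above 0, with a median of 0.05, and of the 51 lower genes 18 had a slope below 0, with a median of 0.02. Over all genes 9070 of 19505 slopes were above 0. The slopes of largest size were 0.73 ± 0.20 for Fhl1, 0.45 ± 0.15 for Mustn1 and 0.43 ± 0.10 for Lrrc2 per unit, with adjusted p values of 0.368, 0.498 and 0.263. Pdk4 had a slope of 0.07 and Synpo2 of 0.07, Prkaa2 of -0.14 and Kdm3a of 0.02 per unit, none past the threshold. By list, 0 of 16 macrophage genes, 3 of 18 endothelial genes and 1 of 16 white adipocyte genes had slopes above 0, against 16, 16 and 14 with a difference above 0 in the 5 tumours. Epithelial genes had 18 of 20 slopes above 0, where 18 of 20 differences were below 0. The score ran from -1.93 to 0.49 in the 19 and from 2.81 to 5.92 in the 5, so the 2 comparisons cover different ranges of muscle content.

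Treatment comparisons were fitted with and without the muscle term. With the term in the model 0 genes passed for BMS754807, hydroxychloroquine or the combination against control in limma, with 1125, 1038 and 1079 genes at an unadjusted p under 0.05, and the percent called was 0 in each. Without the term the counts were 0 again, with 1146, 939 and 986 unadjusted. With the 5 tumours left out they were 0, with 1246, 1145 and 906. The 3 comparisons share the control tumours. List medians for BMS754807 against control moved with the term: fast filaments from 1.08 without it to 0.24 with it, giant and Z disc proteins from 0.43 to 0.013, macrophage genes from -0.12 to -0.28 and endothelial genes from 0.13 to 0.0078. For hydroxychloroquine and the combination the medians of these 4 lists were the same in both fits.

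Muscle genes themselves showed what the term removes. Acta1 was 2.21 ± 2.18 higher with BMS754807 than in control without the term and 0.82 ± 1.01 with it, because 2 of 6 BMS754807 tumours were muscle-rich and 1 of 6 controls. With hydroxychloroquine and with the combination, where 1 of 6 was muscle-rich as in control, the estimates of 1.70 and 0.52 were the same in both fits, and the SE went from 2.18 to 1.00. The muscle difference itself varied by group for 58 genes in an interaction test, and 1593 genes had an unadjusted p under 0.05 there. In that test 3 of the 4 groups had a single muscle-rich tumour, so group and tumour cannot be told apart.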

How the data were processed

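Total RNA of 24 tumours was hybridised to Clariom S arrays, 1 array each. The deposited values were taken as log2 signal made by the authors; the log base was inferred from the values, and Transcriptome Analysis Console 4.0 is named in the submitters' processing notes, with background correction, normalization and summarization not given in the sources used here. Of 22206 probe sets, 19572 had 1 gene symbol in the platform annotation, 0 had several and 2634 had none. The probe set with the highest mean was kept per gene, which left 19505 genes. The model held treatment group and muscle-rich (yes or no); limma 3.58.1, run in R 4.3.3 with lmFit and default eBayes, used every array and left 19 residual degrees of freedom. Tests were two-sided, with Benjamini-Hochberg adjustment over the 19505 genes and a threshold of 0.05. Muscle list genes were part of the adjustment in the main and the slope fit, which eases the threshold for the other genes. Differences are muscle-rich minus other tumours ± SE. Genes of the 9 muscle lists have no p, since muscle genes chose the tumours. The p values of muscle genes off those lists carry the same limit. Of the 727 genes on all 40 lists 666 were measured. The slope fit used the 19 other tumours (14 residual degrees of freedom). The code was tested on simulated data. The members and lists were chosen with earlier results of these data known. Genes named were the 3 that chose the tumours, up to 4 per list by smallest p (muscle lists by largest difference), 12 per direction among genes on no list, and 10 of the drug pathways, proliferation and keratins; others are said to be named after their values were seen. Replicate numbers were not used as pairs in the main model. Alternatives covered filters, probe sets, scaling, array weights, covariates and single removals. Arrays have no read depth, and their number limits the precision.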

Additional observations from a re-analysis of the deposited data

Results flagged for a closer look

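With 5 muscle-rich tumours, a tumour was singled out where its gap to the nearest of the others was more than 0.71 of the range, which chance gives in about 1 of 20 groups; 184 genes and lists were looked at and 12 tumour values stood out. Many of the genes looked at were picked by their muscle difference, so the 12 are not separate observations and nothing is read from their number. Hydroxychloroquine tumour 5, the highest by the fast filament score (5.92), gave 7 of the 12, all upward. They were Cox6a2 at 10.49 (7.33 to 8.23 in the other 4), Musk at 6.33 (2.52 to 3.09), Fbxo32 at 10.50 (8.27 to 8.61), Prkaa2 at 9.15 (5.26 to 5.99), Fitm1, which helps store fat in muscle, at 5.40 (3.84 to 4.28), Bves, a membrane protein of muscle, at 4.93 (3.88 to 4.07) and Nexn at 10.37 (8.89 to 9.18). Control tumour 5 was lowest for the plasma protein precursor Ambp, at 5.30 (6.12 to 6.21 in the others), and for the muscarinic receptor Chrm3, at 3.89 (4.92 to 5.32). BMS754807 tumour 2 was highest for Ucp1, at 8.13 (2.14 to 2.84), and for Igf1r, at 12.05 (11.49 to 11.65). BMS754807 tumour 6 was lowest for the epithelial factor Elf3, at 9.76 (10.71 to 11.07).

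In limma's interaction test the muscle difference differed between treatment groups for 58 of all 19505 genes. Many of the 114 named genes on no muscle list were picked by their muscle difference or after their values were seen. Their share is therefore not compared with that of all genes. Of these 114 genes, 10 passed in the interaction test. The adjusted p values were 3.75e-05 for Hspb7, 3.62e-05 for Apobec2, an RNA-editing family member of muscle, and 3.62e-05 for Fbxo40, a ubiquitin ligase adaptor of muscle. They were 0.00389 for Mypn, a Z disc protein, 0.00657 for Asb11, 0.00941 for Eef1a2, 0.0123 for Prkaa2, 0.0129 for Hspb6, 0.022 for Hjv and 0.0491 for Lrrc2. Each of the 10 was highest in hydroxychloroquine tumour 5, the tumour with the most muscle RNA of the 5 by the fast filament score (5.92). As 3 of the 4 groups held 1 muscle-rich tumour, a difference between treatments and a difference between single tumours cannot be told apart.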

How the results depend on the processing

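Over single removals the higher count ran from 56 to 152, the lower count from 12 to 123 and the slope count from 0 to 6, against 91, 51 and 4 with all tumours. The other settings moved mainly the lower count: 77 with array medians centred, 25 with array weights, 8 with the muscle score as a number, 2 with the epithelial score as covariate (54 higher), and, in settings chosen after seeing the data, 1 with the macrophage score as covariate (57 higher) and 4 without control tumour 5 and BMS754807 tumour 6. The causes were not tested. Of the 142 called genes, 53 stayed past the threshold with the epithelial score, 52 with the macrophage score and 57 without those 2 tumours; all 142 kept their direction in every setting run, except that with the lower quartile of genes left out 114 of them were tested.

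Replicate numbers in the titles showed no pairing for most tumours: of 36 pairs with the same number 9 correlated over 0.1, and 6 of 24 tumours correlated best with their own number. The tumours numbered 3 correlated with each other at 0.087 to 0.305. Whether the numbers mark pairs was not settled. With the replicate block 52 genes were higher, 9 lower and 3 had a slope, and 55 of the 142 stayed past the threshold; the Krt18 difference was -0.012.

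Differences that changed sign were all of uncalled genes. Krt18 was -0.0084 after quantile normalization again, -0.048 with medians centred, -0.016 with array weights, -0.014 with the macrophage score, -0.071 without control tumour 5 and BMS754807 tumour 6, and -0.054 to 0.060 over single removals. Krt19 was 0.0086 with no group term, 0.033 without those 2 tumours and -0.093 to 0.011 over single removals. Igf1 was -0.30 with the epithelial score and -0.59 with the macrophage score. Slc28a3 and Eps8l3 were 0.11 and 0.088 with the epithelial score. Gpihbp1 was -0.027 with the macrophage score and -0.055 without the 2 tumours. Over single removals Ucp1 ran from -0.11 to 1.24 and Igf1r from -0.032 to 0.15, lowest in both without BMS754807 tumour 2.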

Other observations

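Some gene groups not described above separated the 5 muscle-rich tumours from each other. The interferon-stimulated score was 1.32 in BMS754807 tumour 6 and -0.67 in hydroxychloroquine tumour 5, against -0.63 to 0.59 in the other 19, so these 2 tumours lay on either side of that range. The neutrophil score was 0.98 in control tumour 5 and -0.56 in hydroxychloroquine tumour 5, against -0.38 to 0.39. The list medians of the muscle-rich difference were 0.12 for 23 interferon-stimulated genes and 0.11 for 12 neutrophil genes, with signs that depended on single tumours: -0.058 for the first without BMS754807 tumour 6 and -0.089 for the second without control tumour 5. In limma 0 genes of either list passed the threshold, with 2 and 0 at an unadjusted p under 0.05. Ribosomal protein genes had a median of 0.01 over 20 genes and immediate-early genes -0.0035 over 17.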
